A study of Mus musculus with 7 samples.

Results

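Transcripts of 10 heart muscle genes were followed in fibroblasts sorted from young mouse hearts. They were the 10 rows Tnni1, Tnni3, Tnnt2, Actc1, Myh6, Myh7, Myl2, Myl4, Myl7 and Nppa, chosen by symbol from a table of 54735 gene symbols. All 10 had counts in all 7 libraries and passed the filter on low counts, which left 17636 genes tested. The study profiled fibroblast subpopulations of the postnatal heart by bulk RNA sequencing. Postn P7 comprised 2 libraries from PostnMCM;R26eGFP mice aged 7 days, Tcf21 P30 comprised 3 libraries from Tcf21MCM;R26eGFP mice aged 30 days, and Tcf21 P7 comprised 2 libraries from Tcf21MCM;R26eGFP mice aged 7 days. Every group therefore carried MerCreMer, a recombinase activated by tamoxifen, under the Postn gene, which encodes the matrix protein periostin, or under Tcf21, which encodes a transcription factor, and an R26eGFP reporter that stays on in cells once they have recombined. Males and females were pooled, and green fluorescent cells were collected by flow sorting. The sources used here give neither the tamoxifen schedule nor the number of hearts per library.

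The sarcomere is the contractile unit of striated muscle, in which myosin thick filaments pull on actin thin filaments when calcium binds to the troponin complex. Many of its proteins exist as fetal and adult, or atrial and ventricular, isoforms encoded by separate genes. In the mouse heart, slow skeletal troponin I gives way to cardiac troponin I around birth and beta myosin heavy chain gives way to alpha, while the atrial light chains are expressed in both chambers early and retreat to the atria. Fibroblasts do not assemble sarcomeres.

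The 7 libraries held 15207835 to 18519528 counts. Fibroblast transcripts dominated them, with all 10 genes of a fibroblast list detected and a summed level of 38334 to 47414 CPM (normalised counts scaled to a common library total) in Postn P7, 39291 to 49549 CPM in Tcf21 P30 and 52938 to 53157 CPM in Tcf21 P7. The 10 muscle transcripts together took 0.114% and 0.0582% of counts in Postn P7, 0.0745%, 0.0394% and 0.0426% in Tcf21 P30, and 0.101% and 0.0918% in Tcf21 P7. On the normalised scale their sum stood at 1053 and 566 CPM for Postn P7, at 749, 409 and 433 CPM for Tcf21 P30, and at 1039 and 940.3 CPM for Tcf21 P7. Postn P7 had only 2 libraries, so neither can be named the deviating one, and its replicate 1 was the nearer to Tcf21 P7. Replicate 1 of Postn P7 and replicate 1 of Tcf21 P30 had the highest sums of their groups. The same 2 libraries were high in 10 endothelial genes, all detected, whose sum was 1572 and 967 CPM for Postn P7, 3592, 993 and 1175 CPM in Tcf21 P30, and 1198 and 1054 CPM in Tcf21 P7. Both were also the highest of their groups in pericyte, smooth muscle and erythroid genes; the sum of 8 pericyte genes, all detected, was 2209 and 1601 CPM for Postn P7, 1514, 831 and 878 CPM for Tcf21 P30, and 1113 and 1063 CPM for Tcf21 P7. The part of these cells in the muscle values was not tested. The labels do not say that libraries came from separate animals or sorts, so each p-value reflects variation among these libraries, part of which may be technical.

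The promoter windows of the 3 transcripts that differed between ages, Tnni1, Myl7 and Myl4, are shown with that of Tnni3, the adult partner of Tnni1. Each runs 5′ to 3′ from 250 bases before to 50 bases after a RefSeq transcription start in GRCm38.p6. The positions are chr1:135799171-135799470 (plus strand) for Tnni1, chr7:4522479-4522778 (minus strand) for Tnni3, chr11:5898733-5899032 (minus strand) for Myl7 and chr11:104550413-104550712 (plus strand) for Myl4. Capitals mark matches on either strand to 6 motifs. They were TATAAA, the core promoter box; GATAA, bound by Gata4 and its relatives; CATTCC, bound by Tead proteins; TNAAGTG, bound by Nkx2-5; the CArG box, bound by serum response factor; and the MEF2 site.
Tnni1: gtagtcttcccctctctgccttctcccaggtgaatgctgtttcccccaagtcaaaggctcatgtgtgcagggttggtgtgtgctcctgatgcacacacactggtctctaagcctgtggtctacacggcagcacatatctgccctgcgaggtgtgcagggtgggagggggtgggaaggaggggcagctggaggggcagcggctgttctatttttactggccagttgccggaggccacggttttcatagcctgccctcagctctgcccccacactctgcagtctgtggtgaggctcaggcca
Tnni3: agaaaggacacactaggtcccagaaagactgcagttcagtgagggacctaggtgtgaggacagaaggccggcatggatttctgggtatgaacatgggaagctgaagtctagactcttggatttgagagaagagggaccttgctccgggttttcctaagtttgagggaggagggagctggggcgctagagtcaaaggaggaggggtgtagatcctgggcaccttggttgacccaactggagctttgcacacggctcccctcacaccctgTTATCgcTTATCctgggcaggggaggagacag
Myl7: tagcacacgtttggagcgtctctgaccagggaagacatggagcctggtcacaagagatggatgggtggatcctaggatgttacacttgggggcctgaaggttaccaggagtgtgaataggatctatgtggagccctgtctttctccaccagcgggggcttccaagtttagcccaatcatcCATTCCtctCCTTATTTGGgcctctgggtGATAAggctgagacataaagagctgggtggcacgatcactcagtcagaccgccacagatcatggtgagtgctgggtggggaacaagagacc
Myl4: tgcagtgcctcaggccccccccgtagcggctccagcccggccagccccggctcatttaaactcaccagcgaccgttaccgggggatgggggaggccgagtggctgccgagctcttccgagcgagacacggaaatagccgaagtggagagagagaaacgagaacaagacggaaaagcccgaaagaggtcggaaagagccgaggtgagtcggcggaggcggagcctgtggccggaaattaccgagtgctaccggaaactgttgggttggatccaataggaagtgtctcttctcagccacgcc
The Tnni1 and Myl4 windows held none of the 6 motifs. The Tnni3 window held 2 GATAA matches in reverse, with their left ends 18 and 25 bases after the start. The Myl7 window held CATTCC, a CArG box and GATAA, with left ends 70, 61 and 41 bases before the start, and no 2 of these overlapped. Over all 14 RefSeq windows of the 10 genes, a CArG box was found for 2 genes (Actc1 and Myl7), GATAA for 5, CATTCC for 4, TATAAA for 4, TNAAGTG for 2 and a MEF2 site for 0. Among 32851 windows of mouse genes the shares were 1.63% for the CArG box, 25.4% for GATAA, 14.7% for CATTCC, 13.6% for TATAAA, 11.5% for TNAAGTG and 1.86% for the MEF2 site. These shares count single windows, whereas a gene above counted once for a match in any of its windows, so the measures differ. A match describes letters in the window and does not identify a bound site.

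Levels per kilobase of the main transcript put the 10 genes in a similar order in the groups. In Postn P7 the mean level per kilobase was highest for Tnnt2 at 135 CPM, then Actc1 at 128, Myl2 at 91.1 and Tnni3 at 72.0, and the ranges of neighbours in this run overlapped. In Tcf21 P30 Tnnt2 led at 119 CPM per kilobase, ahead of Tnni3 at 69.4, Actc1 at 56.9 and Myl2 at 51.0, again with overlapping neighbours. In Tcf21 P7 Actc1 led at 172 CPM per kilobase without overlap, followed by Myl2 at 148 and Tnnt2 at 147, whose ranges overlapped, and Tnni3 at 123. The largest move in rank was that of Tnni1. It held rank 6 in Postn P7 at 21.9 CPM per kilobase, rank 10 in Tcf21 P30 at 0.160 and rank 6 in Tcf21 P7 at 31.4. Myh7 was last at P7, at 4.05 CPM per kilobase in Postn P7 and 2.02 in Tcf21 P7, and stood at 4.79 in Tcf21 P30. Over the 7 libraries, mean levels per kilobase placed Tnnt2, Actc1, Myl2 and Tnni3 at or above the 95th percentile of tested genes and Myh7 at the 38.5th percentile. Pdgfra, a receptor gene of fibroblasts, lay at the 97.6th percentile.

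**Figure D1:**
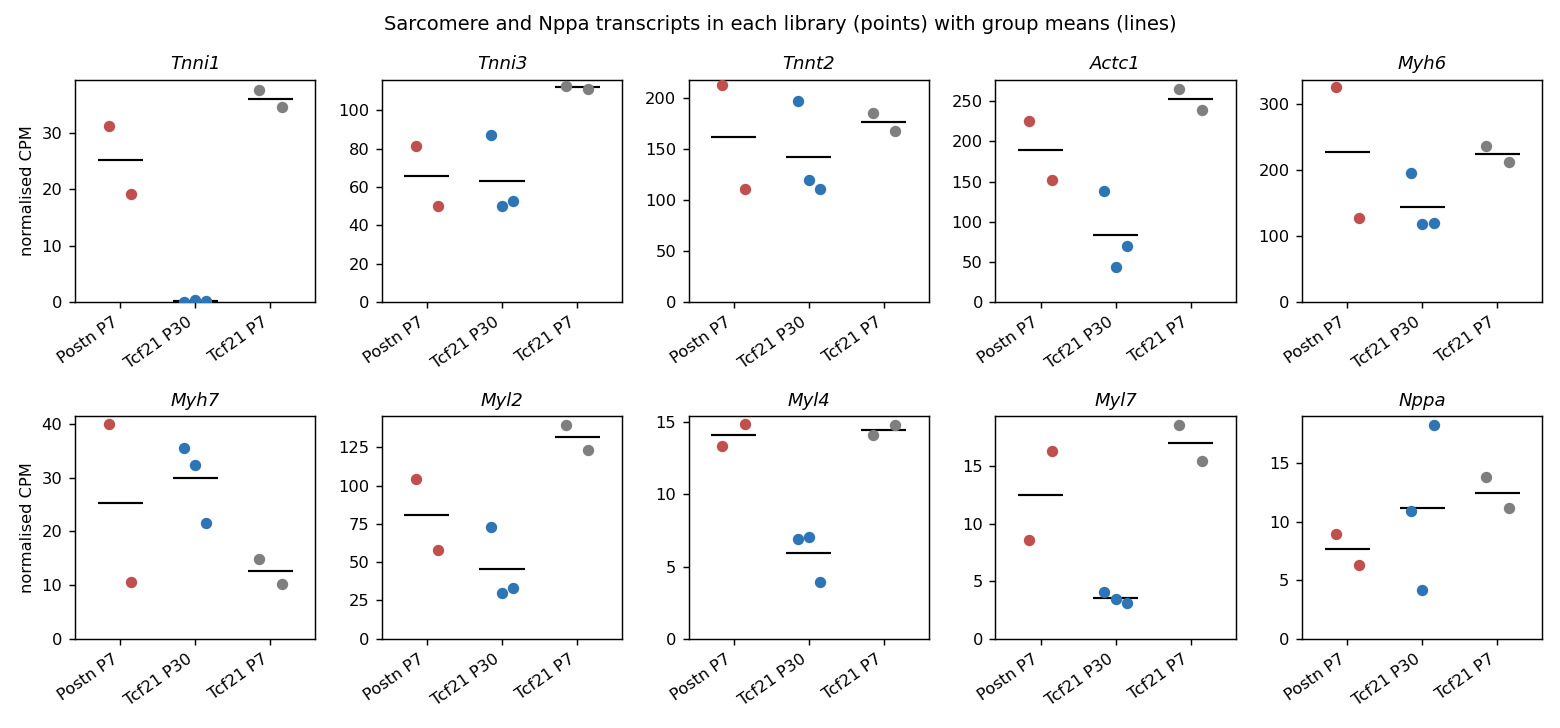
Normalised CPM of each transcript (vertical axis, linear from 0) in the libraries of Postn P7, Tcf21 P30 and Tcf21 P7. Points are libraries and lines are group means. Tnni1 lies at or below 0.380 CPM in all 3 Tcf21 P30 libraries and at or above 19.1 CPM in the 4 P7 libraries.

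The comparison of Tcf21 P30 with Tcf21 P7 set separate libraries of the same genotype at 2 ages against each other. Since the tamoxifen schedule is not given, whether the P30 cells descend from a population like that sorted at P7 is not known. Of the 10 transcripts 3 were lower at P30 (Tnni1, Myl7 and Myl4) and 0 were higher by edgeR's quasi-likelihood test, with p-values adjusted over all 17636 genes by the Benjamini-Hochberg method and a threshold of 0.05. Across all genes the same test called 31.8%, with 15% lower and 16.7% higher. At an unadjusted p under 0.05, 6 of the 10 passed, against 43.4% of all genes. The median log2 fold change was -1.05 over the 10 transcripts and 0.03 over all genes tested, and 9 of 10 estimates were below 0. Libraries of the 2 ages did not overlap for 7 transcripts that were lower at P30 and 1 that was higher (Myh7). Among all genes, 30% were lower and 31.8% higher without overlap. In bulk libraries, fewer cells of a type and less RNA per cell cannot be told apart.

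Troponin I, the subunit that holds the thin filament inactive until calcium binds, showed the largest difference. Tnni1 (ENSMUSG00000026418, protein coding, chr1:135779434-135810989, plus strand, GRCm38) encodes the slow skeletal isoform used by the fetal heart. Its level was 0.0630, 0.380 and 0.110 CPM in Tcf21 P30, from 1, 6 and 2 counts, against 37.6 and 34.6 CPM in Tcf21 P7, from 662 and 600 counts. The P30 libraries lay near zero and far below both P7 libraries. The log2 fold change was -7.58 ± 0.43 (SE, adjusted p = 4.8e-05, edgeR). With only 9 counts at P30 the size is imprecise: the summed, depth-corrected ratio of Tcf21 P7 over Tcf21 P30 was 200.1, with an exact 95% interval of 105 to 439 that covers counting error only.

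Tnni3 (chr7:4518305-4524229, minus strand) encodes cardiac troponin I, the isoform of adult cardiomyocytes. Levels were 87.2, 49.9 and 52.8 CPM in Tcf21 P30, against 113 and 111 CPM in Tcf21 P7. All 3 P30 libraries lay below both P7 libraries, replicate 1 being the closest. The log2 fold change was -0.82 ± 0.30 (SE) and was not called (adjusted p = 0.087, edgeR). Without replicate 1 of Tcf21 P30 it was -1.12 and called (adjusted p = 0.0066, edgeR). Leaving out the library closest to Tcf21 P7 enlarges the difference, so that call is no separate support.

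Troponin I balance was read within each library, where scaling between libraries has no effect. Per kilobase, Tnni1 made up 0.0573%, 0.600% and 0.165% of Tnni1 plus Tnni3 in Tcf21 P30, against 20.9% and 19.8% in Tcf21 P7. The 95% Wilson intervals reached at most 1.30% in Tcf21 P30 and no lower than 18.4% in Tcf21 P7. The mean share was 0.274% ± 0.287 (SD, n = 3) in Tcf21 P30 and 20.4% ± 0.764 (SD, n = 2) in Tcf21 P7. An exact two-sided permutation test gave p = 0.1, which is the smallest that 3 against 2 libraries allow, and 0.3 after adjustment over 12 such tests.

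Tnnt2 (chr1:135836354-135852260, plus strand), the troponin T that anchors the complex to tropomyosin in the heart, begins 25.4 kb after the end of Tnni1 on the same strand. It was measured at 197, 119 and 111 CPM in Tcf21 P30, against 185 and 167 CPM in Tcf21 P7. The ages overlapped, and the log2 fold change of -0.31 ± 0.36 (SE) was not called (adjusted p = 0.55, edgeR). Actc1 (chr2:114047282-114053548, minus strand) encodes cardiac alpha-actin of the thin filament. Its level was 139, 43.3 and 69.2 CPM in Tcf21 P30, against 266 and 240 CPM in Tcf21 P7, without overlap. Its log2 fold change of -1.59 ± 0.50 (SE) was not called (adjusted p = 0.067, edgeR). Without replicate 1 of Tcf21 P30 it was -2.16 and called (adjusted p = 0.0029, edgeR). That library was again the closest to Tcf21 P7, so the call is no separate support.

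The atrial light chains fell with age. Myl7 (chr11:5896637-5898782, minus strand) encodes the atrial regulatory light chain of myosin. It was measured at 4.10, 3.48 and 3.07 CPM in Tcf21 P30, against 18.6 and 15.5 CPM in Tcf21 P7. The 3 P30 libraries agreed closely and lay well below both P7 libraries, with a log2 fold change of -2.26 ± 0.28 (SE, adjusted p = 0.00088, edgeR). Myl4 (chr11:104550663-104595753, plus strand) encodes the atrial and fetal essential light chain. Levels were 6.93, 7.03 and 3.90 CPM in Tcf21 P30, against 14.1 and 14.8 CPM in Tcf21 P7. Groups did not overlap, and the log2 fold change was -1.28 ± 0.25 (SE, adjusted p = 0.0065, edgeR). The levels of both in Tcf21 P30 rested on few reads, 55 to 65 counts for Myl7 and 71 to 111 counts for Myl4 per library.

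Their ventricular partners also had lower levels at P30. Myl2 (chr5:122100951-122113472, plus strand), the ventricular regulatory light chain, was measured at 72.8, 29.9 and 33.2 CPM in Tcf21 P30, against 140 and 123 CPM in Tcf21 P7. The ages did not overlap, and the log2 fold change of -1.54 ± 0.46 (SE) was not called (adjusted p = 0.058, edgeR). Without replicate 1 of Tcf21 P30 it was -2.05 and called (adjusted p = 0.0026, edgeR). That library was the closest to Tcf21 P7 here too, so the call is no separate support. Per kilobase, Myl7 made up 7.82%, 14.9% and 12.2% of Myl7 plus Myl2 in Tcf21 P30, against 16.7% and 15.9% in Tcf21 P7 (exact permutation p = 0.2, 0.48 after adjustment over 12 tests). Myl4 made up 8.67%, 18.3% and 8.33% of Myl4 plus Myl3 in Tcf21 P30, against 8.86% and 9.39% in Tcf21 P7 (exact permutation p = 1, also after adjustment). The Myl4 share of replicate 2 of Tcf21 P30 was the high one, and without that library the difference changed sign.

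The myosin heavy chains are the motor proteins of the thick filament. Myh6 (chr14:54941921-54966927, minus strand) encodes the alpha chain of the adult mouse heart. Its level was 196, 119 and 120 CPM in Tcf21 P30, against 237 and 213 CPM in Tcf21 P7, without overlap but not called (log2 fold change -0.63 ± 0.44, SE, adjusted p = 0.33, edgeR). Myh7 (chr14:54970684-54994626, minus strand), which lies 3756 bases from Myh6 and encodes the beta chain of the fetal mouse heart, had 35.6, 32.4 and 21.6 CPM in Tcf21 P30, against 14.9 and 10.3 CPM in Tcf21 P7. Every P30 library was above both P7 libraries, yet the log2 fold change of 1.25 ± 0.60 (SE) was not called (adjusted p = 0.17, edgeR). At nearly the same fold it was called when only these 2 groups were fitted (adjusted p = 0.013), without replicate 1 or 2 of Postn P7 (0.013 and 0.015) and with no filter on low counts (1.1e-09). Leaving out replicate 1 of both Postn P7 and Tcf21 P30 also gave a call, and the other 12 alternatives did not. It was the only one of the 10 with an estimate above 0.

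Per kilobase, Myh7 made up 15.1%, 21.1% and 15.03% of Myh7 plus Myh6 in Tcf21 P30, against 5.81% and 4.52% in Tcf21 P7. The share was 17.1% ± 3.49 (SD, n = 3) in Tcf21 P30 and 5.17% ± 0.912 (SD, n = 2) in Tcf21 P7, without overlap (exact two-sided permutation p = 0.1, the smallest possible, 0.3 after adjustment). Several genes overlap Myh7 on the opposite strand, chief among them Mhrt, a heart-enriched noncoding RNA of the mouse. Mhrt had 332, 295 and 268 counts in Tcf21 P30, against 101 and 52 counts in Tcf21 P7. Whether counting used strand was not given in the sources used here, so reads of Myh7 and of Mhrt cannot be told apart.

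Nppa (chr4:148000722-148002079, plus strand) encodes atrial natriuretic peptide, a hormone of the atria and of the fetal and stressed ventricle. It was measured at 10.9, 4.18 and 18.3 CPM in Tcf21 P30, against 13.8 and 11.1 CPM in Tcf21 P7. The P30 libraries spread on both sides of the P7 libraries, and the log2 fold change was -0.16 ± 0.56 (SE, adjusted p = 0.85, edgeR). An antisense gene, Gm13054, overlaps Nppa and had 167, 91 and 276 counts in Tcf21 P30, against 190 and 160 counts in Tcf21 P7, with the same limit on strand.

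**Figure D2:**
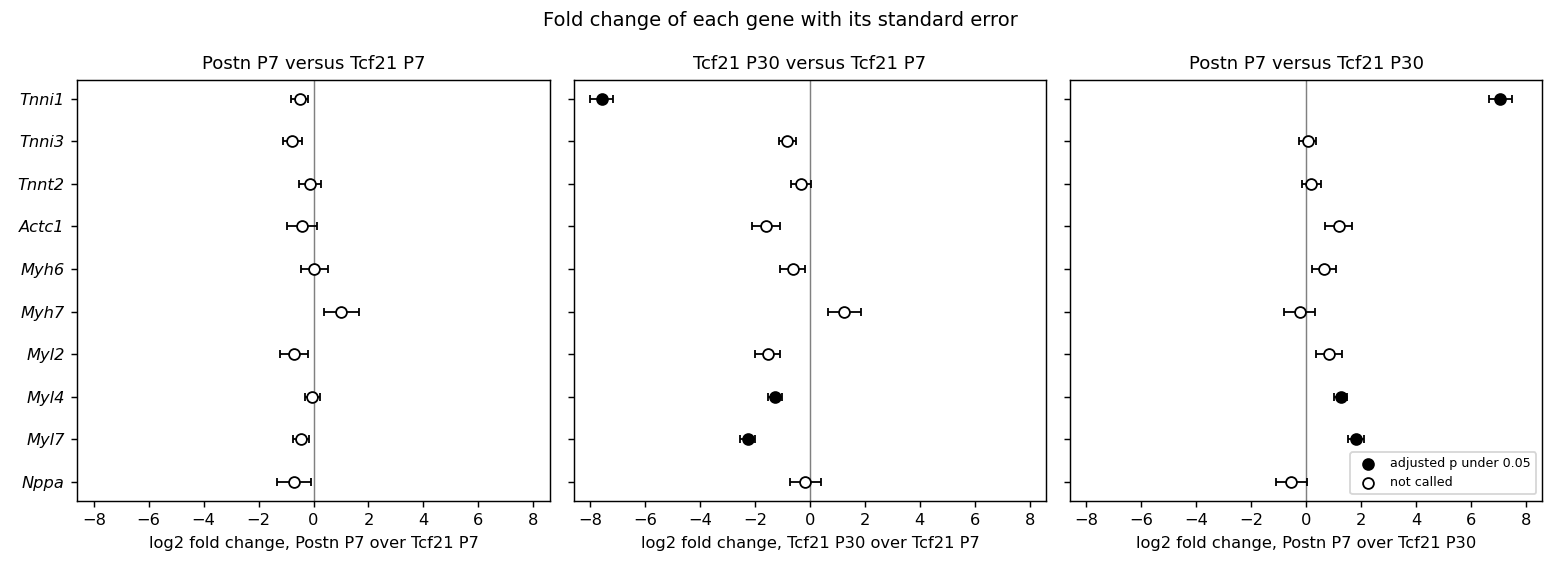
Log2 fold change of each transcript (horizontal axis) with its standard error in the 3 comparisons, filled where the adjusted p from edgeR was under 0.05. Tnni1, Myl7 and Myl4 are filled in both comparisons that involve Tcf21 P30, and 0 are filled between the P7 lineages.

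The 3 calls were also made in all 17 alternative fits, which changed the scaling, the filter, the test or the libraries. Over those fits the log2 fold change of Tcf21 P30 over Tcf21 P7 ranged from -8.57 to -7.21 for Tnni1, from -2.38 to -2.13 for Myl7 and from -1.43 to -1.04 for Myl4. The largest adjusted p was 0.0012, 0.0089 and 0.049 in that order. With replicate 1 of Postn P7 and replicate 1 of Tcf21 P30 left out together, 9 of the 10 transcripts were called, 8 of them lower at P30 and Myh7 higher at 1.10 (adjusted p = 0.0054). Nppa was the one not called. The libraries left out had the highest summed levels of these same transcripts in their groups, so that fit is no separate support. In that fit 40.5% of all genes were called and 19.8% were called lower.

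Other muscle genes gave a mixed picture between the ages, where edgeR called 15% of all genes lower and 16.7% higher. Of 17 further genes of the sarcomere and Z-disc, 5 were lower at P30 and 1 was higher, with a median log2 fold change of -0.16. Actn2, the alpha-actinin of the Z-disc, was lower by edgeR at -1.83 ± 0.36 (SE, adjusted p = 0.012), with 14.3 ± 7.04 CPM in Tcf21 P30 (SD, n = 3) and 50.7 ± 3.18 CPM in Tcf21 P7 (SD, n = 2). The ventricular essential light chain Myl3 was lower at -1.55 ± 0.39 (SE, adjusted p = 0.032, edgeR), as were the thick filament regulator Mybpc3, troponin C (Tnnc1) and the M-band gene Myom2. Xirp2, an actin-binding protein of the intercalated disc, was higher at 2.14 ± 0.52 (SE, adjusted p = 0.018, edgeR). Titin (Ttn) was measured at 445, 269 and 258 CPM in Tcf21 P30, against 147 and 103 CPM in Tcf21 P7, and was not called by edgeR. Its replicates differed widely in Postn P7, at 394 and 40.4 CPM.

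Of 10 cardiomyocyte energy genes, with a median of -0.83, 3 were lower at P30 and 0 higher, against 15% and 16.7% of all genes. They were the fatty acid binding protein Fabp3 (-1.74 ± 0.41, SE), muscle creatine kinase Ckm (-1.26 ± 0.27, SE) and muscle enolase Eno3 (-1.03 ± 0.26, SE), with adjusted p from edgeR of 0.025, 0.012 and 0.023. Among 12 genes of calcium handling and ion channels 1 was lower, sarcolipin (Sln), and 1 was higher, triadin (Trdn), with a median of -0.13. The calcium pump Atp2a2 was measured at 418, 417 and 444 CPM in Tcf21 P30, against 479 and 459 CPM in Tcf21 P7. Among 4 ventricular genes 3 were lower (Irx4, Myl3 and Ckm). Of 5 atrial genes 4 were tested; sarcolipin, also on this list, was lower, and the dehydrogenase gene Dhrs9 was higher on few counts (7, 21 and 15 counts in Tcf21 P30, against 1 and 0 in Tcf21 P7; adjusted p = 0.027, edgeR). Of 12 skeletal muscle isoforms 7 were tested, and the slow troponin T gene Tnnt1, which lies 1922 bases from Tnni3, was lower at -1.34 ± 0.31 (SE, adjusted p = 0.014, edgeR), while fast troponin T (Tnnt3) was higher at 1.68 ± 0.39 (SE, adjusted p = 0.014, edgeR).

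Some cardiac transcription factors, such as Gata4 and Tbx20, are also known from fibroblasts of the heart. Of 9 listed 8 were tested, and 4 were lower at P30: Tbx20 at -1.30 ± 0.17, Gata4 at -0.83 ± 0.15, Nkx2-5 at -1.69 ± 0.45 and the muscle methyltransferase Smyd1 at -1.48 ± 0.48 (SE each), with adjusted p from edgeR of 0.0011, 0.005, 0.025 and 0.049. Of 8 genes of the conduction system 5 were tested and 2 were lower, the T-type calcium channel Cacna1g and the connexin Gjd3. Of 4 natriuretic and stress genes 1 was lower, the muscle ankyrin repeat gene Ankrd1. Over all genes edgeR called 15% lower at P30. Many of the calls on the muscle lists rested on both Tcf21 P7 libraries. Of 20 genes called and named by the rule in these lists, 17 lost the call without replicate 1 of Tcf21 P7, 17 without replicate 2 of Tcf21 P7 and 9 without replicate 3 of Tcf21 P30, against 5 without replicate 2 and 1 without replicate 1 of Tcf21 P30. Dhrs9 was not tested without replicate 2 or 3 of Tcf21 P30, since its counts were then too low. Tbx20 was called each time.

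**Figure D3:**
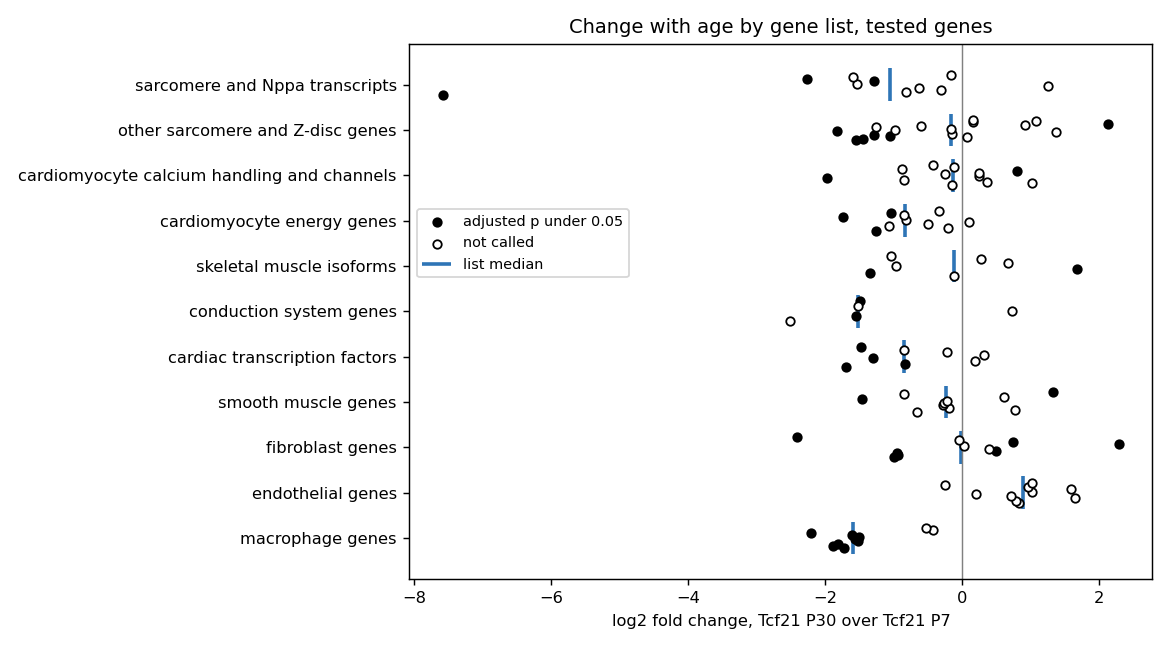
Log2 fold change of Tcf21 P30 over Tcf21 P7 (horizontal axis) for the tested genes of each list (rows), filled where the adjusted p from edgeR was under 0.05, with the median of the list as a vertical bar. Tnni1 at -7.58 lies apart from every other gene shown, and the macrophage list has a median of -1.59.

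Markers of other cells moved with age as well. Of 10 macrophage genes, all detected, 8 were lower at P30, and their sum was 606, 409 and 424 CPM in Tcf21 P30, against 1141 and 1150 CPM in Tcf21 P7. Of 10 endothelial genes 9 had estimates above 0 at P30 and 1 below, with a median of 0.90. Replicate 1 of Tcf21 P30 had the highest sum, 3592 CPM against 993 and 1175 CPM in the rest of its group. Of these genes 0 were called by edgeR, DESeq2 or limma-voom, and 0 had an unadjusted p under 0.05. A set of 9 abundant cardiomyocyte transcripts outside the 10 (Ttn, Actn2, Mybpc3, Ryr2, Atp2a2, Tnnc1, Ldb3, Myoz2 and Pln), all detected, summed to 1164, 802 and 847 CPM in Tcf21 P30, against 999 and 909 CPM in Tcf21 P7, and 3 of them were lower (Actn2, Mybpc3 and Tnnc1). The sum did not separate the ages, but Atp2a2 and Ttn made up most of it. The other 7 genes summed to 301.5, 116 and 144 CPM in Tcf21 P30, against 373 and 347 CPM in Tcf21 P7, without overlap, and over all 9 the median log2 fold change was -0.84 with 7 estimates below 0. Of 8 pericyte genes 4 had estimates above 0 and 4 below (median 0.03), with 1 call by edgeR (Pdgfrb, higher at P30). DESeq2 and limma-voom each called 1 pericyte gene higher and 1 lower. The part of cell composition in these results was not tested.

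At P7 the Postn trace was set against the Tcf21 trace at the same age. Of the 10 transcripts 0 were called by edgeR, against 12% of all genes (6.52% higher and 5.49% lower in Postn P7). Scaling by upper quartiles or by library size alone changed that split of 1149 genes higher and 969 lower: upper quartiles gave 1187 higher and 647 lower, and library size alone 1741 higher and 472 lower. At an unadjusted p under 0.05, 0 of the 10 passed, against 30.4% of all genes; DESeq2 called 1 (Tnni3, adjusted p = 0.049) and limma-voom called 0. The median log2 fold change was -0.44 over the 10 and 0.00 over all genes. In both Postn P7 libraries 5 transcripts were lower than in either Tcf21 P7 library and 0 were higher in both, while 32.6% of all genes were lower and 31.4% higher without overlap. A missed threshold does not show that the lineages were alike, since estimates ranged from -0.77 to 1.01 with standard errors of 0.27 to 0.64.

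Tnni1 was measured at 31.3 and 19.1 CPM in the Postn P7 libraries, against 37.6 and 34.6 CPM in Tcf21 P7 (log2 fold change -0.51 ± 0.31, SE, adjusted p = 0.31, edgeR). Tnni3 was measured at 81.4 and 49.8 CPM in the Postn P7 libraries, against 113 and 111 CPM in Tcf21 P7 (-0.77 ± 0.34, SE, adjusted p = 0.19, edgeR). Both were lower in Postn P7 without overlap, and their balance differed little. Per kilobase, Tnni1 made up 23.4% and 23.3% of Tnni1 plus Tnni3 in Postn P7, against 20.9% and 19.8% in Tcf21 P7 (exact two-sided permutation p = 0.333, the smallest that 2 against 2 libraries allow, 0.5 after adjustment).

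The replicate spread of Postn P7 was wide for most of the 10. Replicate 1 over replicate 2 of Postn P7 was 3.78 for Myh7, 2.56 for Myh6, 1.92 for Tnnt2, 1.79 for Myl2 and 1.48 for Actc1. It was 0.900 for Myl4 and 0.522 for Myl7, so the atrial light chains did not follow the others. On the CPM scale, Myh7 was measured at 39.9 and 10.6 in Postn P7, against 14.9 and 10.3 in Tcf21 P7, and Myh6 at 327 and 128 in Postn P7, against 237 and 213 in Tcf21 P7. The Postn P7 libraries lay on both sides of the Tcf21 P7 libraries for Myh6, and both were above or between them for Myh7. Without replicate 1 of Postn P7 the estimate changed sign for Myh6, to -0.82, and for Myh7, to -0.26.

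With replicate 1 of Postn P7 and replicate 1 of Tcf21 P30 left out together, 5 of the 10 were called, all lower in Postn P7, against 20.7% of all genes called in that fit and 9.74% called lower. They were Tnni1 at -0.91, Tnni3 at -1.16, Tnnt2 at -0.67, Myh6 at -0.81 and Myl2 at -1.18, with adjusted p from edgeR of 0.0092, 6.7e-05, 0.0014, 0.00035 and 0.00011. Postn P7 then had a single library, whose variation was taken to equal that of the others. Myl2 was measured at 104 and 58.0 CPM in the Postn P7 libraries, against 140 and 123 CPM in Tcf21 P7, and Actc1 at 226 and 152 CPM in the Postn P7 libraries, against 266 and 240 CPM in Tcf21 P7. Myl4 was nearly level at 13.4 and 14.8 CPM in the Postn P7 libraries, against 14.1 and 14.8 CPM in Tcf21 P7. Myl7 was measured at 8.55 and 16.4 CPM in the Postn P7 libraries, against 18.6 and 15.5 CPM in Tcf21 P7, with overlap. Nppa was measured at 8.92 and 6.33 CPM in the Postn P7 libraries, against 13.8 and 11.1 CPM in Tcf21 P7, without overlap.

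Few other muscle genes were called between the lineages, where edgeR called 12% of all genes. Of the 17 further sarcomere and Z-disc genes 1 was called, the titin cap gene Tcap, with 10.2 ± 1.52 CPM in the Postn P7 libraries and 19.9 ± 0.902 CPM in Tcf21 P7 (SD, n = 2 each) (-0.96 ± 0.22, SE, adjusted p = 0.031, edgeR). Of the skeletal isoforms 1 was called, Tnnt3, with 3.41 ± 1.24 CPM in the Postn P7 libraries and 0.773 ± 0.0488 CPM in Tcf21 P7 (SD, n = 2 each) (2.13 ± 0.41, SE, adjusted p = 0.02, edgeR). Leaving out any 1 of the 4 P7 libraries ended the call of Tcap, and leaving out any of them but replicate 1 of Postn P7 ended that of Tnnt3, with adjusted p of up to 0.18 for Tcap and 0.15 for Tnnt3. Their log2 fold changes stayed between -1.12 and -0.83 for Tcap and between 1.70 and 2.46 for Tnnt3 with 1 library left out. The lists of calcium handling, energy supply, transcription factors and conduction had 0 calls by edgeR, with 3, 2, 2 and 1 genes at an unadjusted p under 0.05. On these lists DESeq2 called 1 energy gene and limma-voom called 0 genes. Energy genes had 9 of 10 estimates below 0 (median -0.75), and ventricular genes 4 of 4 (median -0.77). Calcium genes had 6 below and 6 above 0, transcription factors 5 and 3, and conduction genes 2 and 3. A missing call does not show that these genes were alike in the lineages. Of 10 macrophage genes 8 were lower in Postn P7, where their sum was 330 and 466 CPM, against 1141 and 1150 CPM in Tcf21 P7. Erythroid genes, of which 7 of 8 were tested and 0 called by edgeR, DESeq2 or limma-voom or had an unadjusted p under 0.05, had a sum of 370 and 68.8 CPM in the Postn P7 libraries, against 506 and 482 CPM in Tcf21 P7. All 8 pericyte genes had estimates above 0 (median 1.00, Pdgfrb called higher). The Schwann and glia gene Erbb3 was called higher (2.36 ± 0.60, SE, adjusted p = 0.042, edgeR). The part of these cells in the muscle values was not tested.

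**Figure D4:**
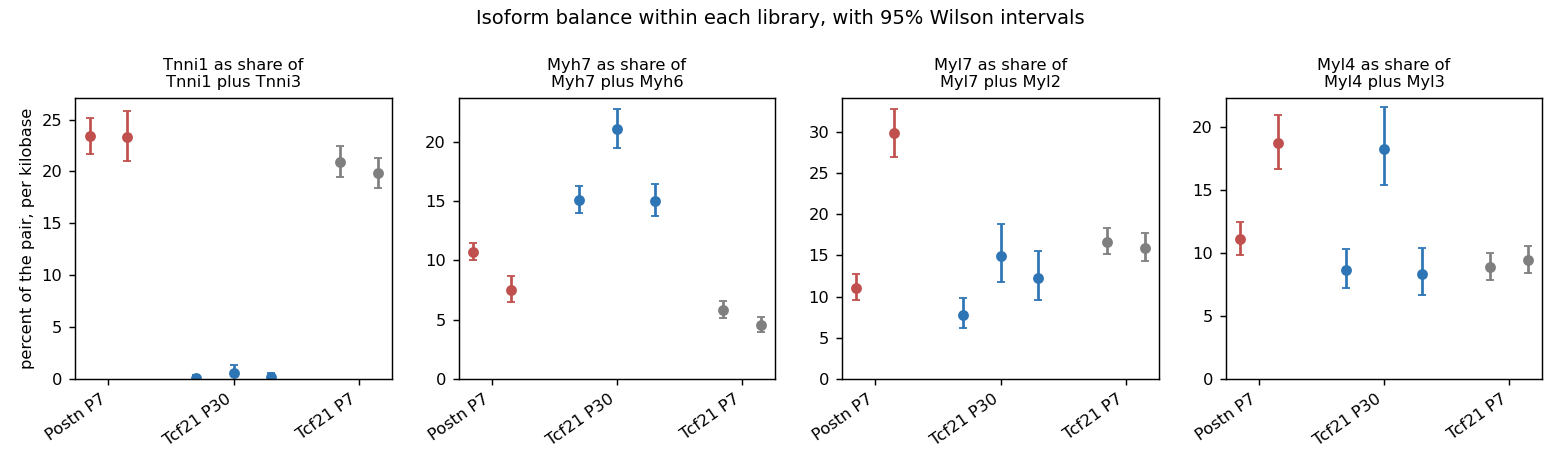
Share of the first gene in each pair (vertical axis, percent of the pair after division by transcript length) in every library, with 95% Wilson intervals that cover counting error only. The Tnni1 share is at most 0.600% in Tcf21 P30 and at least 19.8% elsewhere, and the Myh7 share is at least 15.03% in Tcf21 P30 and at most 10.7% elsewhere.

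The comparison of Postn P7 with Tcf21 P30 differed in both lineage and age and shares libraries with the other 2. The same 3 transcripts were called, all higher in Postn P7, against 11.7% of all genes called higher, 12.5% lower and 24.2% in either direction. With library size alone as the scale, 2802 genes were higher and 1725 lower, in place of 2070 and 2206. The log2 fold change was 7.07 ± 0.43 for Tnni1, 1.81 ± 0.28 for Myl7 and 1.25 ± 0.25 for Myl4 (SE each), with adjusted p from edgeR of 4.6e-05, 0.0028 and 0.0086. Summed Tnni1 counts were 892 in Postn P7 and 9 in Tcf21 P30, a depth-corrected ratio of 143 with an exact 95% interval of 75.0 to 314. Actc1 was the other one without overlap (1.18 ± 0.50, SE, adjusted p = 0.17, edgeR), so 4 of the 10 were higher and 0 lower without overlap, against 24.7% and 25.9% of all genes. At an unadjusted p under 0.05, 3 of the 10 passed, against 36.3% of all genes. Tnni3 stood at 81.4 and 49.8 CPM in the Postn P7 libraries, against 87.2, 49.9 and 52.8 CPM in Tcf21 P30, and the ranges overlapped. Of the 17 further sarcomere and Z-disc genes, 2 were higher in Postn P7 (Actn2 at 1.57 ± 0.36 and Myom2 at 0.80 ± 0.20, SE) and 2 were lower (Xirp2 at -2.07 ± 0.51 and Tcap at -0.79 ± 0.20, SE), with adjusted p from edgeR of 0.025, 0.024, 0.024 and 0.024. The calcium and channel list had 2 genes higher in Postn P7, the sodium-calcium exchanger Slc8a1 at 0.52 ± 0.12 (SE) and the natriuretic peptide protease Corin at 1.25 ± 0.27 (SE), and 3 of 5 tested conduction genes were higher (Cntn2, Cacna1g and Gjd3). The energy list had 0 calls by edgeR, with 3 genes at an unadjusted p under 0.05, while DESeq2 called 3 and limma-voom 1. Among markers of other cells, all 8 pericyte genes had estimates above 0 (median 1.32, Notch3 called), 9 of 10 endothelial genes had estimates below 0 (median -0.58, Tek called), and Erbb3 was called higher. Their part in these values was not tested. Myh7 made up 10.7% and 7.50% of the Myh7 and Myh6 pair per kilobase in Postn P7, against 15.1%, 21.1% and 15.03% in Tcf21 P30 (exact permutation p = 0.1, the smallest possible, 0.3 after adjustment). Myl7 made up 11.02% and 29.9% of its pair with Myl2 in Postn P7, against 7.82%, 14.9% and 12.2% in Tcf21 P30, with overlap.

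The genes whose levels ran closest to those of the 10 were found by the mean absolute difference of log2 CPM over the 7 libraries, each gene centred on its own mean. The average of the 10 was a plain mean, in which Tnni1, with by far the largest changes, weighed most. It need not run like a typical one of the 10. For that average the closest were AC161166.1, Impa2, Hist1h1e, Mcm3, Zfp516, Evl, Tnnc1, Hopxos, Clec2l and Cenpm, at 0.0962 to 0.131 log2 units. Tnnc1, the troponin C gene, was the only gene of the sarcomere lists among them. Myl2 ran closest to Myl3 (0.0977) and Fabp3 (0.134), Actc1 to Fabp3 (0.126) and Mybpc3 (0.130), and Tnnt2 to Gm26848 (0.100) and Nrap (0.108), a muscle gene of the intercalated disc. Tnni1 had no near neighbour among the muscle genes. Its closest were Cthrc1 (0.365), a secreted collagen triple helix repeat protein, and Dlk1 (0.508), an imprinted gene of the Notch ligand family. Myl7 was closest to Galnt5 (0.181), Myl4 to Gm15541 (0.0703), Myh6 to Klhl31 (0.127), Myh7 to Mlxipl (0.159), Tnni3 to Gm14303 (0.0771) and Nppa to Tmem143 (0.160).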

How the data were processed

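Bulk RNA sequencing libraries of 7 samples in 3 groups were compared. The authors deposited raw counts per gene symbol, 1 column per library, with no normalization. STAR and GRCm38 are named in the submitters' processing notes. Versions, the counting program, its annotation and its use of strand are not given in the sources used here. Positions and transcript lengths came from GENCODE M21 for GRCm38, which held 54106 of the 54735 symbols, and promoters from RefSeq GRCm38.p6.

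In edgeR 4.0.16 (R 4.3.3), counts were filtered (filterByExpr), TMM-scaled and fitted by robust quasi-likelihood with 1 mean for each of the 3 groups, all 7 libraries together, with Benjamini-Hochberg adjustment over 17636 genes and a threshold of 0.05. Standard errors were taken from the F statistic as |log2 fold change| over its square root. Levels are normalised CPM. Levels per kilobase and shares use the length of the principal transcript. Shares within pairs were compared over libraries by exact two-sided permutation tests in Python 3.11.15. Likeness used log2 of CPM plus 0.5.

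The 10 genes and all gene lists were chosen with earlier results of these data known. Genes named besides the 10 were up to 4 called genes per muscle list with the largest changes, the 10 genes nearest to the mean of the members and the 2 nearest to each. Myom2, Tnnc1, Ttn, Atp2a2 and Pdgfra were added after their values were seen. Alternatives were other scalings, no filter, DESeq2 1.42.0, limma-voom (limma 3.58.1), fits of 2 groups, summed Tcf21 P7 libraries, a replicate block and leaving out libraries. The fit was tested on simulated counts of 17636 genes, drawn independently around a single mean per gene, with few genes changed. For Tcf21 P30 against Tcf21 P7 it recovered 27 of 49 simulated 2-fold changes, 41 of 50 simulated 4-fold changes and made 13 false calls. For Postn P7 against Tcf21 P7 it recovered 23 of 48 simulated 2-fold changes, 39 of 50 simulated 4-fold changes and made 19 false calls. The simulation held no library that shifted in many genes at once. It also changed far fewer genes than were called in the real data. Its false calls are therefore no error rate for the real calls.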

Additional observations from a re-analysis of the deposited data

How the results depend on the processing

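Tnni1, Myl7 and Myl4 kept their direction and their call in both comparisons with Tcf21 P30 under all 17 alternatives. How many of the other transcripts passed depended on the fit, and the cause was not tested unless stated. Fits without replicate 1 of Postn P7, replicate 1 of Tcf21 P30 or both dropped libraries with the highest sums of these same transcripts in their groups. They are no separate support for the calls, and leaving out both left Postn P7 with 1 library. For Tcf21 P30 against Tcf21 P7, 3 were called in the reported fit, 8 with no filter on low counts, 6 by DESeq2, 5 by limma-voom, 9 without replicate 1 of both Postn P7 and Tcf21 P30, and 3 to 6 with 1 library left out. For Postn P7 against Tcf21 P7 the count was 0 in the reported fit, 4 with no filter, 1 by DESeq2, 5 without both of those libraries, and 0 to 1 with 1 library left out. For Postn P7 against Tcf21 P30 it was 3 in the reported fit, 6 with no filter, 6 without both libraries, and 3 to 5 with 1 left out. Genes called for Postn P7 against Tcf21 P7 numbered 2118 in the reported fit, 3442 with no filter, 123 with the Tcf21 P7 libraries summed (a control group then of 1 library), 3750 without both libraries, and 111 to 3250 with 1 left out. For Tcf21 P30 against Tcf21 P7 they numbered 5604, 2463 with the sum and 2418 to 6063 with 1 left out, and for Postn P7 against Tcf21 P30 4276, and 2810 to 5072 with 1 left out.

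Small estimates changed sign. For Postn P7 against Tcf21 P7, scaling by library size alone, which shifted the median over all genes by 0.116, gave 0.001 for Tnnt2 and 0.077 for Myl4. For Myh6 limma-voom gave -0.132. Without both libraries Myh6 was -0.811, Myh7 -0.25 and Myl4 0.041. With 1 library left out Myh6 ranged from -0.818 to 0.532, Myh7 from -0.257 to 1.656, Myl4 from -0.123 to 0.034 and Tnnt2 from -0.678 to 0.26. For Tcf21 P30 against Tcf21 P7, Nppa ranged from -0.725 to 0.228. For Postn P7 against Tcf21 P30, Tnni3 was -0.046 and Tnnt2 -0.059 without both libraries. With 1 left out Tnni3 ranged from -0.345 to 0.364, Tnnt2 from -0.363 to 0.576, Myh6 from -0.182 to 1.169, Myh7 from -1.499 to 0.415 and Nppa from -0.909 to 0.044. In percentage points, the Myl7 share difference ranged from -5.29 to 13.55 for Postn P7 against Tcf21 P7 and from -0.639 to 18.2 for Postn P7 against Tcf21 P30. The Myl4 share difference ranged from -0.629 to 4.345 for Tcf21 P30 against Tcf21 P7 and from -0.698 to 6.943 for Postn P7 against Tcf21 P30. Shares computed with the whole exon length of each gene, an alternative chosen after seeing the data, kept every direction.

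Equal replicate numbers do not pair libraries in the labels, and residuals of libraries with the same number (relative to the mean of each group) correlated at 0.04 to 0.31. With replicate number as a block, the pairing moved the transcripts called for Tcf21 P30 against Tcf21 P7 to 5, Myh6 in Postn P7 against Tcf21 P7 to -0.127, and for Postn P7 against Tcf21 P30 Tnni3 to -0.054 and Nppa to 0.099. Depth limits Tnni1 at P30, where 9 counts in all set the size of its fold change.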

Other observations

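The genes of 2 very large muscle proteins differed more between the Postn P7 replicates than any of the 10 transcripts did. Replicate 1 over replicate 2 was 9.75 for Ttn and 10.8 for Ryr2, the calcium release channel, against 3.78 for Myh7, the highest ratio among the 10. In Tcf21 P30 the same ratio was 1.65 for Ttn and 1.84 for Ryr2. For all 1735 genes with transcripts over 6 kb, the median log2 difference of replicate 1 minus replicate 2 was 0.07 in Postn P7 and 0.21 in Tcf21 P30. For the 816 genes with transcripts of up to 1 kb it was 0.12 in Postn P7 and 0.07 in Tcf21 P30.

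The antisense RNA Mhrt, which overlaps Myh7, had 390 and 25 counts in Postn P7, 332, 295 and 268 in Tcf21 P30, and 101 and 52 in Tcf21 P7. Gm49130, antisense to Myh6, had 401 and 86 counts in Postn P7, 352, 281 and 304 in Tcf21 P30, and 260 and 222 in Tcf21 P7. Reads of overlapping genes cannot be told apart.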
